A study of Mus musculus with 4 samples.

Results

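Proteasome genes were examined in leukaemic spleen cells of 2 mice that were cultured with R848 or vehicle. The members were the rows of the deposited table whose symbol starts with Psma to Psmg followed by a digit and whose mean over the 4 samples was at least 1 FPKM (a unit scaled for transcript length and library size, as the authors name the linear values). The symbol pattern matched 52 of 28074 symbols, and 47 of these passed the level limit. The lowest member, Psma8, had a mean of 6.05 FPKM and the highest symbol left out, Psmb11, a mean of 0.67 FPKM, so no member lay close to the limit. Of the 47, 4 encode immunoproteasome parts (Psmb8, Psmb10, Psme1 and Psme2), 30 encode constitutive subunits of the core and its cap, 7 encode assembly chaperones and 3 encode other activators or an inhibitor. The last 3 are the testis subunit Psma8, the pseudogene Psme2b-ps and Psmc3ip, a recombination factor that shares the letters of the symbol but is no proteasome subunit. Psmb9, the remaining inducible catalytic subunit, was not analysed here.

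The samples came from mice named 4050 and 4182, whose source is labelled Dnmt3afl/fl,Flt3ITD/ITD,Mx1Cre primary AML, while the protocols also write Dnmt3a+/- for them, so the Dnmt3a genotype was not resolved here. By the source label, both groups carry floxed Dnmt3a, the internal tandem duplication of the receptor kinase Flt3 and a Cre recombinase under the Mx1 promoter. Interferon induces that promoter, which is not limited to a single blood cell type. After thawing, cells had 24 hours of recovery in serum (20%) with SCF at 60 ng/ml and IL6 and IL3 at 20 ng/ml each. Part of the cells of each mouse then received vehicle, and another part R848 at 10 µg/ml, and both were kept for 3 days (n = 2 per group). R848, or resiquimod, is an imidazoquinoline known as an agonist of the RNA sensors TLR7 and TLR8, and the stated aim was to find genes and pathways that change with it. The mice's ages are not stated in the sources used here.

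The proteasome is the protease that degrades proteins tagged with ubiquitin. Its barrel-shaped core, the 20S particle, has outer rings of alpha subunits and inner rings of beta subunits, and the beta1, beta2 and beta5 subunits (Psmb6, Psmb7 and Psmb5) carry the constitutive active sites. The 19S cap binds ubiquitin chains, unfolds the substrate with a ring of ATPases (Psmc) and holds non-ATPase subunits (Psmd). Interferon is known to induce replacement catalytic subunits (Psmb9, Psmb10 and Psmb8 for beta1, beta2 and beta5) and the activator PA28 alpha and beta (Psme1 and Psme2), which together favour peptides for MHC class I. Cells of the blood lineages often hold immunoproteasomes without stimulation.

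With R848, the 4 immunoproteasome genes were higher in both mice and had the largest mean differences of the 47 members. Psmb10, Psme2 and Psme1 rose, with log2 differences of 1.55, 1.29 and 1.01, and Psmb8 had a log2 difference of 0.76 that passed the test with the mouse as a block only. The 30 constitutive subunits had differences between 0.10 and 0.44 on the same scale, and 0 of them passed. Thus 3 of the 4 immunoproteasome genes and 0 of the other 43 members passed limma at an adjusted p under 0.05 over all 12612 genes tested, where 1.47% of all genes were called higher and 0.381% lower. Before adjustment, 3 of the other 43 had p under 0.05 (8 with the block), all of them higher. Of all 12612 genes, 656 were higher and 798 lower at that unadjusted limit (846 and 1098 with the block). With the mouse as a block, 4 of 4 and 0 of 43 passed the adjusted limit, against 3.4% of all genes called higher and 1.9% lower. The median log2 difference was 1.15 for the immunoproteasome genes and 0.25 for the constitutive subunits, against -0.08 over all genes tested. All differences are of log2(FPKM + 1), R848 minus control.

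**Figure D1:**
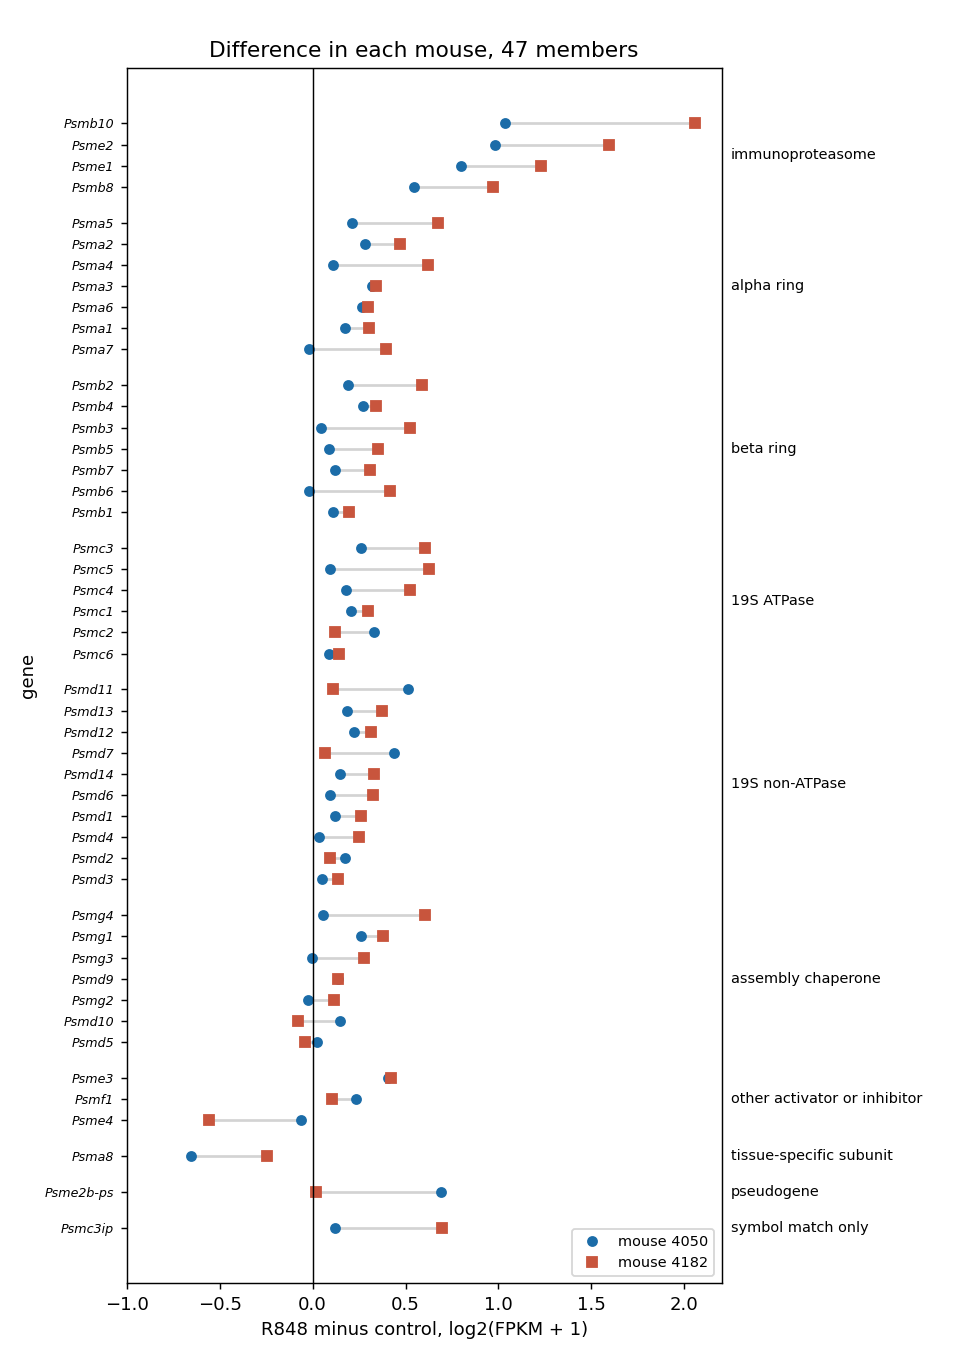
Difference between R848 and control in each mouse for the 47 members, by role. The x axis is the difference of log2(FPKM + 1), circles are mouse 4050, squares are mouse 4182, and grey lines join both values of a gene. The 4 immunoproteasome genes lie between 0.55 and 2.06, above every other member in mouse 4050 except that Psme2b-ps (0.69) exceeds Psmb8, and above every other member in mouse 4182.

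The calls of the immunoproteasome genes depended on the scaling and on single samples. After quantile normalization or median log ratio scaling, without the block, 0 of the 4 passed, and with the block and median log ratio scaling together 4 of 4 passed. Leaving out the R848 sample of mouse 4050 or that of mouse 4182 also left 0 of 4, while leaving out either control left 3. With no filter on low values 0 of 4 passed, and without a trended variance prior only Psme2 did. The log2 differences stayed above 0 in all of these, and the median of the 4 genes lay between 1.01 and 1.29.

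The promoter windows of 3 genes are shown so that the inducible Psmb8 and Psme1 can be read beside Psmb5, the constitutive counterpart of Psmb8. They are RefSeq windows on GRCm38.p6 of 250 bases before to 50 bases after the start site, written 5′ to 3′ along the gene. Psmb8 lies at chr17:34197945-34198244 (plus strand), Psme1 at chr14:55578244-55578543 (plus strand) and Psmb5 at chr14:54617946-54618245 (minus strand). Capitals mark the letters that matched one of 3 motifs.
Psmb8: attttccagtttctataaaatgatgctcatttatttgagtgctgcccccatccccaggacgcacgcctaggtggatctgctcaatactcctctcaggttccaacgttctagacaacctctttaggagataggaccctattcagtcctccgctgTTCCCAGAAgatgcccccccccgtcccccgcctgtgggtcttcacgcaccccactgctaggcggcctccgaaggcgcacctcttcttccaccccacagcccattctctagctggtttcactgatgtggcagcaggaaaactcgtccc
Psme1: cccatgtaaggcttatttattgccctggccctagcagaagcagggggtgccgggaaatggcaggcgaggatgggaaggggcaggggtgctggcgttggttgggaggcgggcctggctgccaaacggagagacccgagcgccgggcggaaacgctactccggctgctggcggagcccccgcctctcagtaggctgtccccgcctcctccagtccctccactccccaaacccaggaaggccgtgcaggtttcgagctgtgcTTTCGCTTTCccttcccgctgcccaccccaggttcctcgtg
Psmb5: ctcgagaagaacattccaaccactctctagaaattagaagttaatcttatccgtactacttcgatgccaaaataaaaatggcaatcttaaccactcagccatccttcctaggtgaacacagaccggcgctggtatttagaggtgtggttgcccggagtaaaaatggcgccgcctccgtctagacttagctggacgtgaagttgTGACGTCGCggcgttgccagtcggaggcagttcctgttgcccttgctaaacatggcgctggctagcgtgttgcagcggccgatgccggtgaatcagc
The motifs were searched on both strands as GAAANNGAAA for the interferon-stimulated response element, TTCNNNGAA for the gamma-activated site and TGACNNNGC for the core of the antioxidant response element. Psmb8 held TTCCCAGAA from base -97 to -89 before the start site, Psme1 held TTTCGCTTTC from base 9 to 18 after it, and Psmb5 held TGACGTCGC from -47 to -39. Windows existed for 38 of the 47 members. For each of these, 1 window was used, the one nearest the gene's 5′ end. The shares over all windows were not reduced to 1 window per gene, so the 2 kinds of share are not fully alike. The first motif was found in 5 of these 38 (Psmb3, Psmd4, Psmd9, Psme1 and Psmg4), or 13.2%, against 3.44% of all 32851 windows. The second was found in 3 of 38 (Psmb8, Psmd2 and Psmg1), or 7.89% against 8.3%, and the last in 6 of 38 (Psmb5, Psmb6, Psmc6, Psmd12, Psmd9 and Psme4), or 15.8% against 12.4%. A match is a run of letters and not a shown binding site. The windows of Psmb10 and Psme2 matched none of the 3 motifs.

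Psmb10 encodes the inducible beta2 subunit (MECL-1) and lies at GRCm38 chromosome 8, 105935728 to 105938392. Its level was 60.2 FPKM in the control of mouse 4050 and 46.7 in that of mouse 4182, and 124 and 197 FPKM with R848. Both R848 samples were above both controls, by 2.07-fold in mouse 4050 and 4.23-fold in mouse 4182. The log2 difference was 1.55 (SE 0.25, limma adjusted p = 0.0277, and 5.2e-04 with the block). Psmb10 was the least abundant of the 4 immunoproteasome genes in every sample and had the largest log2 difference. Of all genes tested, 1.4% had a difference at least as large.

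Psme1 and Psme2 encode the alpha and beta chains of PA28, a cap that opens the core without ubiquitin or ATP. They lie close together on chromosome 14, at 55578494 to 55581527 and 55587440 to 55591101. Psme1 was at 189 and 172 FPKM in control and at 330 and 404 FPKM with R848 (mice 4050 and 4182). Psme2 was at 182 and 144 FPKM in control and at 360 and 438 FPKM with R848. For both genes the groups did not overlap, and the R848 sample of mouse 4182 was the highest. The log2 differences were 1.01 for Psme1 (SE 0.17, limma adjusted p = 0.0321) and 1.29 for Psme2 (SE 0.18, limma adjusted p = 0.0202). With the block, limma adjusted p was 0.00151 and 4.4e-04. The chains form 1 ring together, and the level of Psme2 relative to Psme1 was 0.96 and 0.84 in control and 1.09 and 1.08 with R848.

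Psmb8 encodes the inducible beta5 subunit (LMP7) and lies in the MHC region of chromosome 17, at 34198195 to 34201454. It was at 268 and 283 FPKM in control and at 391 and 556 FPKM with R848, so the groups did not overlap. The log2 difference was 0.76 (SE 0.20), with limma adjusted p = 0.148, and 0.0124 with the block. In control its mean of 275 ± 10.8 FPKM (SD, n = 2) was the highest of the 4 immunoproteasome genes. It also exceeded Psmb5, the subunit it replaces, in each of the 4 samples.

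**Figure D2:**
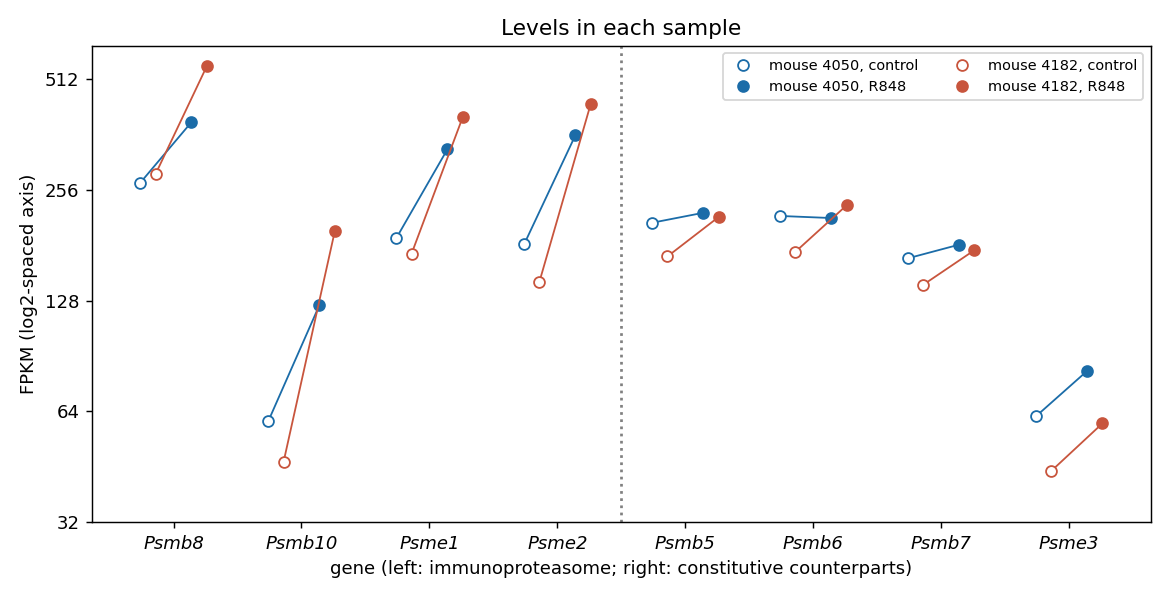
Level of the 4 immunoproteasome genes and of 4 constitutive counterparts in each sample. The y axis is FPKM on a log2-spaced axis, open points are control, filled points are R848, and lines join the samples of a mouse (blue 4050, red 4182). Psmb10 goes from 46.7 to 60.2 FPKM in control to 124 to 197 with R848, while Psmb7 goes from 141 to 167 to 176 to 182.

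The constitutive catalytic subunits were compared next, since each inducible subunit takes the place of one of them. Psmb5 (beta5) was at 209 and 169 FPKM in control and at 222 and 216 with R848. Psmb7 (beta2) was at 167 and 141 FPKM in control and at 182 and 176 with R848. Psmb6 (beta1) was at 218 and 174 FPKM in control and at 215 and 232 with R848, so its groups overlapped. Their log2 differences were 0.22, 0.22 and 0.20, with limma adjusted p of 0.693, 0.685 and 0.741. Psmb5 and Psmb7 were a little higher with R848 in both mice, and Psmb6 was higher in mouse 4182 only.

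Ratios within a sample do not move when the whole sample is scaled by a common factor, though quantile normalization can change them. Psmb8 relative to Psmb5 was 1.28 and 1.68 in control and 1.76 and 2.57 with R848. With R848 this ratio was 1.37-fold higher in mouse 4050 and 1.53-fold higher in mouse 4182 (mean log2 change 0.54 ± 0.11, SD, n = 2). Psmb10 relative to Psmb7 was 0.36 and 0.33 in control and 0.68 and 1.12 with R848, which is 1.90-fold and 3.41-fold higher (1.35 ± 0.60 on the log2 scale). Expressed as a share of each pair, Psmb8 made up 56.2% and 62.6% in control and 63.8% and 72.0% with R848. Psmb10 made up 26.5% and 24.8% in control and 40.6% and 52.9% with R848. The beta2 pair thus started with less of the inducible transcript than the beta5 pair and differed more between the treatments in both mice. An exact permutation test, two-sided, gave p = 0.333 for each of the 5 ratios computed (0.333 adjusted over them), which is the smallest value that 2 samples against 2 allow. These are transcript ratios, and protein or assembled particles were not measured.

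**Figure D3:**
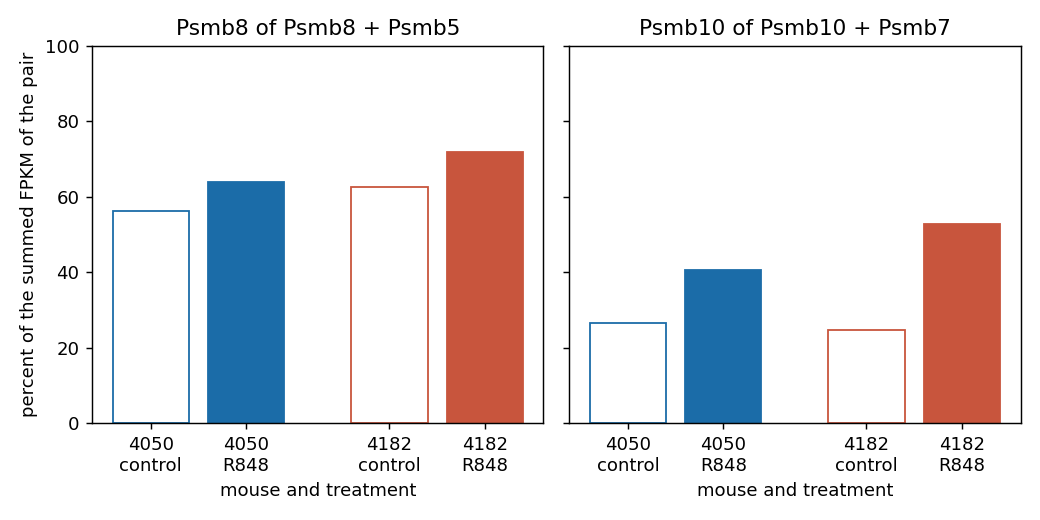
Share of the inducible transcript in the beta5 pair (left, Psmb8 of Psmb8 and Psmb5) and in the beta2 pair (right, Psmb10 of Psmb10 and Psmb7). The y axis is the percent of the summed FPKM of the pair, 1 bar per sample, open for control and filled for R848. The R848 bar is the taller one in each mouse, from 26.5% to 40.6% and from 24.8% to 52.9% in the beta2 pair.

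The PA28 pair was set beside Psme3, which encodes PA28 gamma, a nuclear activator that is not known as an interferon target. Psme3 was at 62.1 and 44.1 FPKM in control and at 82.5 and 59.4 with R848, with overlapping groups, a log2 difference of 0.41 and limma adjusted p = 0.578 (0.19 with the block). Leaving out each sample in turn moved this difference between 0.17 and 0.65. Psme1 relative to Psme3 was 3.05 and 3.89 in control and 4.002 and 6.80 with R848. Psme2 relative to Psme3 was 2.94 and 3.27 in control and 4.37 and 7.37 with R848. Both ratios were higher with R848 in both mice and more so in mouse 4182.

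The constitutive subunits as a group had small differences between the treatments. Of the 30 tested, limma called 0 in either direction, and 3 were higher at an unadjusted p under 0.05 (Psma2, Psma5 and Psmb2). With the block 0 passed and 7 were higher at an unadjusted p under 0.05. Of all 12612 genes tested, 656 were higher at that unadjusted limit, and 846 with the block. The values of the 30 were nevertheless mostly on one side. R848 was above control in both mice for 28 of the 30, against 22.1% of all genes tested, and both R848 samples exceeded both controls for 17 of the 30, against 13.5% of all genes. All subunits were measured in the same 4 libraries, so these counts are not independent of each other. Their median log2 difference was 0.17 in mouse 4050 and 0.33 in mouse 4182, where the medians of all genes were 0.0037 and -0.16. In control, 27 of the 30 were lower in mouse 4182 than in mouse 4050 (median -0.31), and with R848 21 of the 30 were (median -0.11). Of all 12612 genes tested, 6357 were lower in mouse 4182 in control (median -0.0035) and 9322 with R848 (median -0.16). Without the control of mouse 4182 the median of the 30 was 0.09 and 26 were above 0. The median stayed above 0 under both rescalings (0.23 and 0.33).

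Among the alpha subunits, which form the outer rings and gate the core, mean levels ran from 182 FPKM (Psma5) to 333 FPKM (Psma2). Psma5 was at 172 and 138 FPKM in control and at 199 and 221 with R848, a log2 difference of 0.44 (limma adjusted p = 0.363) and the largest of the 30. Psma2 was at 305 and 276 FPKM in control and at 370 and 383 with R848 (0.38, limma adjusted p = 0.384). At the low end, Psma1 was at 236 and 227 FPKM in control and at 266 and 281 with R848, a difference of 0.24. Psma7 was at 313 and 246 FPKM in control and at 309 and 323 with R848, a difference of 0.19 with opposite signs in the mice (-0.020 and 0.39). The groups did not overlap for 6 of the 7 alpha genes, against 13.5% of all genes tested, Psma7 being the exception.

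The beta genes had mean levels from 166 FPKM (Psmb7) to 328 FPKM (Psmb4). Psmb2, a subunit without an active site, was at 201 and 177 FPKM in control and at 229 and 267 with R848 (log2 difference 0.39, limma adjusted p = 0.418). Psmb4, another such subunit, was at 330 and 258 FPKM in control and at 399 and 326 with R848 (0.31), with overlapping groups. Psmb1 was at 279 and 293 FPKM in control and at 301 and 335 with R848 and had the smallest beta difference, 0.15. The levels of all 14 alpha and beta genes thus lay within a narrow band, and the inducible Psmb10 stood below that band in control and reached it with R848 in mouse 4182 only.

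The ATPases of the 19S cap, which unfold substrates, had mean levels from 62.2 FPKM (Psmc5) to 177 FPKM (Psmc3) and a median difference of 0.30. Psmc3 was at 178 and 125 FPKM in control and at 214 and 190 with R848 (log2 difference 0.43, limma adjusted p = 0.485, and 0.16 with the block). Psmc5 was at 69.1 and 41.5 FPKM in control and at 73.7 and 64.5 with R848 (0.36). Its control in mouse 4182 was the lowest sample, and without it the difference was -0.0028. Psmc6 (144 and 136 FPKM in control, 153 and 150 with R848) and Psmc2 (67.9 and 62.6, then 85.7 and 68.3) had differences of 0.12 and 0.23. All 6 ATPase genes were higher with R848 in both mice (22.1% of all genes tested), and 3 of them had groups that did not overlap (13.5% of all genes).

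The non-ATPase subunits of the cap, which bind and remove ubiquitin and hold the particle together, had mean levels from 48.7 FPKM (Psmd3) to 146 FPKM (Psmd14). All 10 members were higher with R848 in both mice, against 22.1% of all genes tested, and 3 had groups that did not overlap, against 13.5%. Psmd11 was at 45.6 and 48.9 FPKM in control and at 65.5 and 52.8 with R848, a difference of 0.31 that came mainly from mouse 4050 (0.52 against 0.11). Psmd13 was at 123 and 93.0 FPKM in control and at 140 and 121 with R848 (0.28), with overlapping groups. Psmd3 (52.3 and 41.8 FPKM in control, 54.3 and 46.1 with R848) and Psmd2 (123 and 109, then 138 and 116) had the smallest differences, 0.10 and 0.13, and both had overlapping groups. Psmd8, a cap subunit, was listed at only 0.27 and 1.28 FPKM in control and 0.30 and 0.63 with R848 and was no member. Its distance from the other cap subunits was not examined further.

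**Figure D4:**
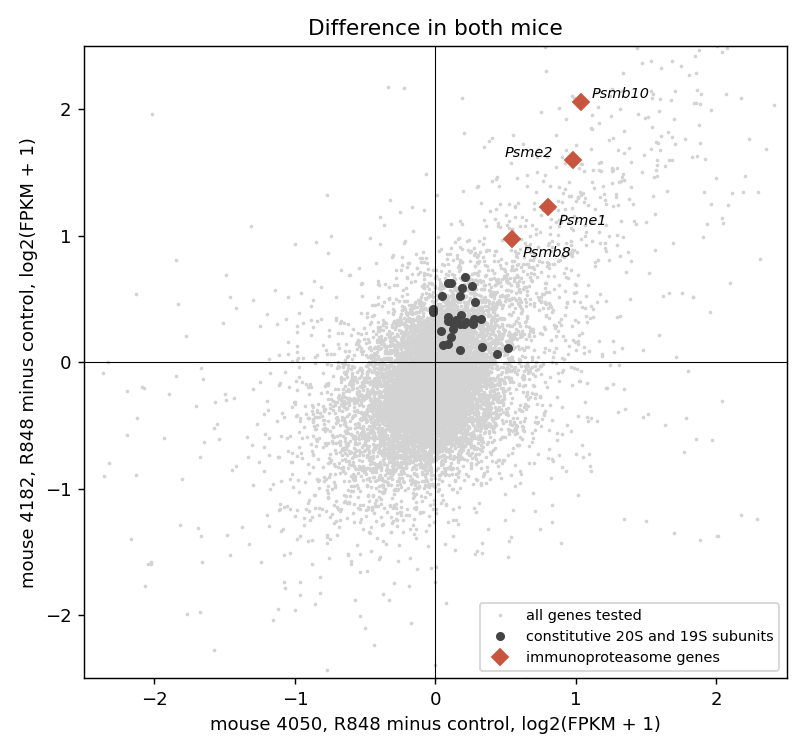
Difference of R848 minus control in mouse 4050 (x axis) and mouse 4182 (y axis), both in log2(FPKM + 1), for all 12612 genes tested (grey), the 30 constitutive subunits (black) and the 4 immunoproteasome genes (red diamonds). Axes end at 2.5 in each direction, which leaves 149 genes out. The constitutive subunits lie together slightly above 0 and the immunoproteasome genes lie apart from them toward the upper right.

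Assembly chaperones, which help build the rings or the base of the cap, had mean levels from 14.3 FPKM (Psmd9) to 70.7 FPKM (Psmd5) and a median difference of 0.14, and 3 of 7 were higher in both mice (22.1% of all genes tested). Psmg4 was at 49.5 and 39.5 FPKM in control and at 51.5 and 60.6 with R848 (log2 difference 0.33), and Psmg1 at 42.0 and 35.6, then 50.4 and 46.6 (0.32). Psmd5 (72.8 and 69.0 FPKM in control, 74.1 and 67.0 with R848) and Psmd10 (22.7 and 23.8, then 25.2 and 22.5) had differences of -0.0079 and 0.033. Both had opposite signs in the mice and overlapping groups. Of the 7, limma called 0 with or without the block, with 0 at an unadjusted p under 0.05 in either fit.

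Psme4, which encodes the activator PA200, was among the few members with lower values. It was at 68.5 and 79.6 FPKM in control and at 65.4 and 53.8 with R848, so the groups did not overlap, with a log2 difference of -0.31 and limma adjusted p = 0.58. The lower value came mainly from mouse 4182 (-0.55 against -0.064). Psmf1, the inhibitor PI31, was at 17.9 and 18.9 FPKM in control and at 21.2 and 20.4 with R848 (0.17). Psma8, a subunit known from testis, was at 9.79 and 4.72 FPKM in control and at 5.85 and 3.84 with R848, with a log2 difference of -0.45, overlapping groups and limma adjusted p = 0.693. Psme4 and Psma8 were the 2 members of 47 that were lower in both mice, against 38.8% of all genes tested, and Psme4 was the 1 member whose R848 samples both lay below both controls, against 28.8% of all genes.

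Some members share sequence with other genes, which limits how far their reads can be told apart. Of the 985 distinct runs of 31 bases in Psme2 transcripts of GENCODE M21, 62.6% also occur in Psme2b transcripts. The row Psme2b-ps was at 7.80 and 12.3 FPKM in control and at 13.2 and 12.5 with R848, far below Psme2 in each sample. Psmc3ip, the symbol match that is no subunit, was at 23.2 and 16.9 FPKM in control and at 25.3 and 28.0 with R848 (log2 difference 0.41, limma adjusted p = 0.516), and 28.2% of its runs occur in other genes. For Psmb5 71.7% of such runs occur in other genes, for Psmb7 33.4%, for Psme1 18.5% and for Psmb8 7.79%. For Psmb10 and Psme3 it was 0 of 1281 and 0 of 2776. Of the runs of Psma5, the constitutive subunit with the largest difference, 66.5% occur in other genes, and of those of Psmb3 66.85%. The values of Psme2, Psmb5, Psma5 and Psmb3, and the ratios that use Psme2 or Psmb5, are therefore less certain than those of Psmb10.

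Other genes of the pathway were taken from lists that were drawn up with earlier results of these data known. Over all genes tested, limma called 1.47% higher and 0.381% lower (3.4% and 1.9% with the block). Of 12 genes for peptide transport and loading on MHC class I, 2 rose and 0 fell by limma (5 and 0 with the block), with a median log2 difference of 0.40. The 2 were Tapbpl, a peptide editor (15.6 and 12.4 FPKM in control, 32.3 and 43.1 with R848, log2 difference 1.36, limma adjusted p = 0.0247), and Erap1, which trims peptides in the endoplasmic reticulum (38.2 and 35.6, then 68.6 and 85.7, 1.04, limma adjusted p = 0.034). Of 17 interferon receptors, kinases and transcription factors linked to class I genes, 5 rose and 0 fell with and without the block. The median log2 difference of the 17 was 0.17, with 11 higher and 3 lower in both mice (22.1% and 38.8% of all genes tested). No receptor or kinase was called in either fit, and Jak2 and Ifngr1 were among the 3. Among the 5 that rose were Irf1 (log2 difference 2.07), Nlrc5 (1.73), Irf7 (1.53) and Irf9 (0.98). Irf1, a transcription factor induced by interferon, was at 58.9 and 57.7 FPKM in control and at 216 and 285 with R848. With R848 it was higher in mouse 4182 than in mouse 4050, as were the 4 immunoproteasome genes.

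Partners of the proteasome outside the Psm symbols had differences around 0. Of 20 tested, among them the core maturation factor Pomp, the ubiquitin receptor Adrm1 and the transcription factors Nfe2l1 and Nfe2l2, limma called 0, with 0 at an unadjusted p under 0.05 (0 and 1 with the block), and the median was -0.0032. Pomp was at 204 and 172 FPKM in control and at 221 and 250 with R848 (log2 difference 0.33, limma adjusted p = 0.522). Nfe2l1, known to induce constitutive subunits when proteasome activity falls short, had a difference of 0.19 (limma adjusted p = 0.778). Of 14 ubiquitin precursors, activating enzymes and ISG15 conjugation genes, 3 rose and 0 fell (5 and 0 with the block). They were Isg15, a ubiquitin-like protein (1.88), Ube2l6, its conjugating enzyme (1.40), and Herc6, its ligase in mouse (1.24). The share of all genes tested was 1.47% called higher and 0.381% lower (3.4% and 1.9% with the block). Of 8 tested genes of the FAT10 and NEDD8 systems limma called 0, with 0 at an unadjusted p under 0.05, in both fits. Ubd, which encodes FAT10, was listed at 0 in 3 of the 4 samples.

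The samples were not sorted, as far as the labels say, and lymphocytes also hold immunoproteasomes, so markers of other cells were measured. Myeloid genes dominated, with summed levels of 3493 and 3998 FPKM in control and 3659 and 3528 with R848 over 11 listed genes (Mpo at 1052 to 1533 FPKM), although Ptprc, the pan-leukocyte marker, was at only 1.27 to 2.69 FPKM. The 7 B cell markers summed to 14.9 and 16.7 FPKM in control and to 42.5 and 44.0 with R848, and 3 of the 5 tested rose by limma (Cd79a and Ms4a1 among them). With the block 4 did, Cd79b being added. Over all genes tested, limma called 1.47% higher and 0.381% lower (3.4% and 1.9% with the block). Of 7 tested plasma cell markers Igj and Mzb1 rose, from at most 0.46 FPKM in control to between 18.1 and 42.2 with R848. At an unadjusted limma p under 0.05, 5 of the 7 were higher and 1 was lower. The lower one was Irf4 (log2 difference -0.71, limma adjusted p = 0.239), and Xbp1 had a difference of -0.039. The 10 T cell markers summed to 11.0 and 11.1 FPKM in control and to 16.4 and 21.2 with R848. Of the 6 tested, limma called Cd3g and Trac higher. Cd28 was lower in both mice (log2 difference -0.42, limma adjusted p = 0.594), and Cd3d had opposite signs in the mice (0.19 and -0.16). Cd3e was at no more than 0.22 FPKM. The NK cell list summed to 152 and 260 FPKM, then 243 and 245, mostly from Nkg7 and Gzmb, and Ncr1 was listed at 0 in 3 samples. Of the 4 NK genes tested, limma called 0 in both fits. At an unadjusted p under 0.05, 1 was higher (Klrk1, log2 difference 1.06) and 0 were lower, also in both fits. Plasma cell markers summed to 542 and 694, then 695 and 630, mostly from Xbp1 (515 and 667 FPKM in control, 599 and 543 with R848). Erythroid lists summed to 6.17 and 8.23, then 4.39 and 4.68. Plasmacytoid dendritic markers summed to 95.2 and 147, then 156 and 281, mostly from Bst2 (50.9 and 65.7 FPKM in control, 111 and 213 with R848), while the median log2 difference of the 5 tested was -0.32. Of these 5, limma called 0, with 1 higher (Bst2) and 1 lower (Cox6a2) at an unadjusted p under 0.05, and both were called with the block. Of the 11 myeloid genes limma called 0, with 2 higher (Csf1r and Ly6c2) and 0 lower at an unadjusted p under 0.05, and both were called with the block (adjusted p = 0.0215 and 0.0398). The median log2 difference of the 11 was -0.13, with 3 higher and 4 lower in both mice (22.1% and 38.8% of all genes tested). Among the 4 were Mpo (-0.37) and Kit (-0.60), whose R848 samples both lay below both controls (28.8% of all genes tested). With the block, Mpo and Kit had an unadjusted limma p of 0.0435 and 0.0326 and were not called. None of these lists had a gene at 0 in all 4 samples. The part of these cells in the immunoproteasome values was not tested. In bulk samples, more cells of a type and more RNA per cell cannot be told apart.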

How the data were processed

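RNA sequencing was done on 4 samples, control and R848 from each of 2 mice. The submitters' processing notes name kallisto and mm10, while versions and annotation are not given in the sources used here. Ribosomal depletion and a stranded mRNA kit both appear in the labels' protocols. The authors deposited log2 values, which reach down to 0, and undoing log2(value + 1) gave sums of 950530 to 962001 per sample. Near-equal sums of this size are what TPM would give, so the values may be TPM, and they are called FPKM as the authors name them. They hold no counts, so depth is unknown. Of 28192 rows, 27 with date names and 91 repeats of a symbol were dropped (keeping the higher mean). limma 3.58.1 (R 4.3.3) was fitted to log2(FPKM + 1) of the genes averaging 1 FPKM or more, with a trended prior. Tests were two-sided, p-values were adjusted by Benjamini-Hochberg over all 12612 genes with a threshold of 0.05, and the fit was tested on simulated data. Per the labels, a mouse number marks 1 animal, so the numbers pair the samples (deviations correlated at 0.289 across genes). A second fit took the mouse as a block and is given where it changes a call. That fit had 1 residual degree of freedom and 11.3 from the prior, against 2 and 5.27 without the block. Its p-values therefore rest mostly on the variance shared across genes. Alternatives were other scalings, pseudocount, filters, variance priors and leaving out each sample. Text names the immunoproteasome genes, their counterparts, called members, the 2 highest and 2 lowest differences of each role, and called genes of each list. Some genes that this rule takes are not named here. Psma8, Psmc3ip, Psme2b-ps, Psmd8, Psmb11 and the examples of list genes that did not pass were added after values were seen. The members and lists were chosen with earlier results of these data known. Figures used matplotlib 3.10.9 in Python 3.11.15.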

Additional observations from a re-analysis of the deposited data

How the results depend on the processing

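The gap between the median log2 differences of the immunoproteasome and constitutive genes was 0.90 (0.72 in mouse 4050 and 1.08 in mouse 4182), and it lay between 0.70 and 1.10 under every alternative run. The number of calls was less stable. Over all genes limma called 233, against 90 after quantile normalization, 107 after median log ratio scaling, 0 with no filter on low values and 669 with the mouse as a replicate block, and leaving out each sample gave 56 to 395. Of the 47 members, and likewise of the 4 immunoproteasome genes, 3 were called, against 0 after quantile normalization, 0 after median log ratio scaling, 0 with no filter and 1 (Psme2) without a trended prior, and leaving out each sample gave 0 to 3. The replicate block gave 4, also together with median log ratio scaling, and it changed no other call among the members. Constitutive subunits had 0 calls under every alternative. Without the control of mouse 4182, the members with a difference above 0 went from 44 to 39 of 47, and the constitutive subunits from 30 to 26 (29 without the R848 sample of mouse 4050). Among the 29 members followed singly, signs turned for 4 with small differences. Leaving out each sample gave -0.0028 to 0.72 for Psmc5, -0.063 to 0.25 for Psmd3 (-0.020 without the R848 sample of mouse 4050), -0.080 to 0.064 for Psmd5 (0.031 without the control of mouse 4050) and -0.045 to 0.11 for Psmd10. Psmd5 was at 0.075 with median log ratio scaling. The cause was not tested. Adding Psmb9 was not run. Where 1 sample was left out, the lone sample of its group is assumed to vary like the others.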
